A study of Mus musculus with 4 samples.

Results

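In the 3 libraries made from mouse omental tumors, 67 cells carried the RNA of pancreatic acinar cells, which make and store digestive enzymes. They were selected on measured values: at least 5% of a cell's UMIs (unique molecular identifiers, counts of captured molecules) came from Ctrb1, Clps, Prss2, Cela1 and Pnlip together, in barcodes with no fewer than 300 genes and 500 UMIs and no more than 15% of UMIs from mitochondrial genes. They made up 67 of the 8332 tumor library cells that passed this filter and of 11253 in the series. KPCA.A held 34 of 2648 (1.28%, exact Clopper-Pearson 95% interval 0.891 to 1.79%), KPCA.B 22 of 2586 (0.851%, 0.534 to 1.29%) and KPCA.C 11 of 3098 (0.355%, 0.177 to 0.634%). The ascites library held 0 of 2921, which allows a share of up to 0.103%. Since enzyme levels chose these cells, everything set against other cells is a description without a test.

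The tumors grew in the omentum of C57BL6J mice from 3 syngeneic cancer lines that name the libraries, KPCA.A, KPCA.B and, as the last, KPCA.C. The labels give the cell type as Fallopian tube epithelial cells. The alleles of the lines are not given in the sources used here. Each tumor library came from 4 pooled tumors of mice 8 weeks old, and the ascites library from mice 9 weeks old and a KPCA line that the labels do not name. Tissue was digested with collagenase type I and DNase I, and droplets captured the 3′ ends of transcripts, with 5000 cells stated. Each group had 1 library, so no difference between libraries has a replicate check and none was tested. All intervals are 95% intervals that cover counting error only, since cells and PCR copies are not independent replicates. Every library held under 50 acinar cells, so ratios between libraries rest on few cells.

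Acinar cells fill most of the exocrine pancreas. They translate secreted enzymes on a dense endoplasmic reticulum, pack them into zymogen granules as inactive precursors, and release them when cholecystokinin or acetylcholine acts on the cell. A complex of PTF1A, which binds E-boxes, with RBPJL or RBPJ drives many enzyme genes through an E-box paired with a TC box. In pancreatitis, acinar cells switch on secreted lectins of the Reg family and can take on duct-like traits.

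The promoters of a trypsinogen (Prss2), an elastase (Cela1) and a pair of Reg lectins (Reg2 and Reg3g) are shown because most enzyme genes differed by less than 2-fold between the 3 libraries, whereas Reg genes differed widely. Prss2 and Cela1 are selection genes, so the rule bounds their levels in every library. Each run is the 250 bases before the gene's start, from RefSeq on GRCm38.p6, 5′ to 3′, with E-boxes (CANNTG) and TC boxes (TTTCCC) of either strand in capitals.
Prss2, chr6:41521526-41521775, plus strand: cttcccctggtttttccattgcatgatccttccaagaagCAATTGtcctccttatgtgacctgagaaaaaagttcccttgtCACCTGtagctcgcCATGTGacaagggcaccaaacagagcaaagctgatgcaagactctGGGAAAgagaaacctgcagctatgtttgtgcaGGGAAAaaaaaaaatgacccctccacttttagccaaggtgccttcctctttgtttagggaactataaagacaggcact
Cela1, chr15:100687921-100688170, minus strand: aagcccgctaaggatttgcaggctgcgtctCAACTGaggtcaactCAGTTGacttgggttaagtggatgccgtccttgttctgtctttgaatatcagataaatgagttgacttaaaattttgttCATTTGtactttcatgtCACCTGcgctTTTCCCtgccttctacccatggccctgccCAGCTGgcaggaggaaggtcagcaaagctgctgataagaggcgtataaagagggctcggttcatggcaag
Reg2, chr6:78404905-78405154, plus strand: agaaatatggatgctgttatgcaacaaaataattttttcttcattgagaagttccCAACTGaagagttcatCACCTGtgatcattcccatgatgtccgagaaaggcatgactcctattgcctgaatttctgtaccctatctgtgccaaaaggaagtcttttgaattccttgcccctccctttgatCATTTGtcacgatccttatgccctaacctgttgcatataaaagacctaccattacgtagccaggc
Reg3g, chr6:78468875-78469124, minus strand: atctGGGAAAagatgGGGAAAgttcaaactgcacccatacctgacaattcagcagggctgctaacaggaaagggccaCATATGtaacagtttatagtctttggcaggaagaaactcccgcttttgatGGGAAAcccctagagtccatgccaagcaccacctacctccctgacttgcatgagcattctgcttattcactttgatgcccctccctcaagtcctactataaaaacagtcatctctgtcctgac
In GENCODE vM21 the Prss2 and Reg3g windows overlap no gene. The Reg2 window lies within the annotated Reg2 gene but on none of its exons, and the Cela1 window shares 1 base with a Cela1 exon. Promoters were matched for 26 of 31 enzyme genes. Both strands of these 250 bases were searched, beside 27025 promoters of the same length. CACCTG, a form of CANNTG, was in 13 (50%) against 17.1% of all promoters. TTTCCC was in 8 (30.8%) against 21.9%, and both were in 6 (23.1%) against 3.63%, the 6 being Cel, Cela1, Cela2a, Cela3a, Prss1 and Prss2. CANNTG was in 22 (84.6%) against 66.04%, and TGGGAA, the RBPJ core, whose other strand shares TTCCC with the TC box, in 13 (50%) against 21.5%. Of Reg2, Reg3a, Reg3b and Reg3g, CACCTG was found in 3, all but Reg3g, and TTTCCC in 2, Reg3b and Reg3g. A match describes the letters only.

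The tumor libraries held 5703, 3358 and 4110 barcodes with 58591493, 40054369 and 95130645 UMIs, and ascites 3118 with 7420674. Pairs of libraries shared at most 19 barcodes, none of them of an acinar cell. The lowest, median and highest depth of an acinar cell was 540, 2569 and 19471 UMIs for KPCA.A, 1556, 8239.5 and 99589 in KPCA.B and 1131, 2726 and 12824 in KPCA.C, in all 122239, 314692 and 54177 UMIs. The deepest cell of each library held 15.9%, 31.6% and 23.7% of them.

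The 5 selection genes took a lowest, median and highest share of 5.19%, 16.3% and 37.5% of a cell's UMIs in KPCA.A. The same values were 9.57%, 31.4% and 37.1% in KPCA.B and 11.9%, 27.9% and 33.3% in KPCA.C. Just inside the threshold lay 5.19% and 5.28% in KPCA.A, 9.57% and 11.5% in KPCA.B, and 11.9% and 20.8% in KPCA.C. Just outside it lay 4.82% and 4.79%, 2.06% and 1.98%, and 4.27% and 3.93%. In KPCA.A the values ran on without a gap, with 123 other cells at 2% or more and 10 acinar cells under 10%, so there the selection is a range of a score and not a separate type. In KPCA.B 1 other cell lay at 2% or more and 1 acinar cell under 10%. Shares of 20% or more were reached by 15, 18 and 10 cells, 43 of the 67.

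**Figure D1:**
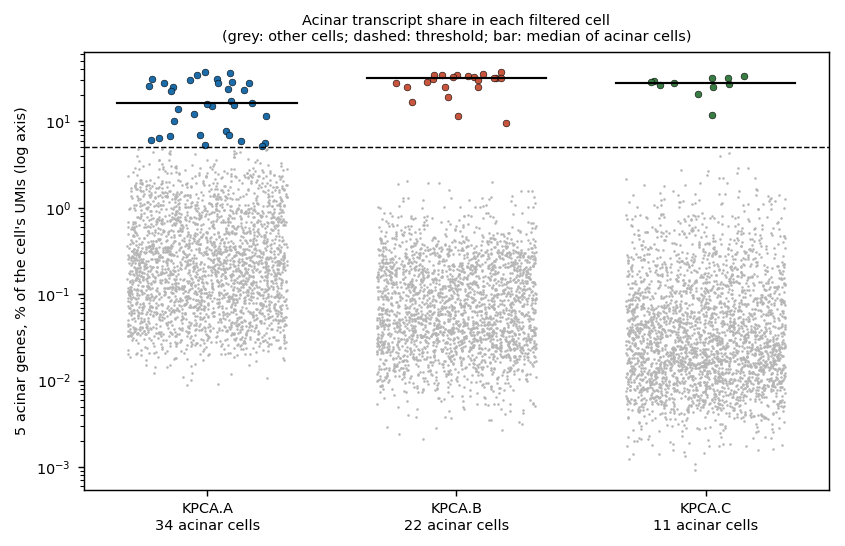
Share of UMIs from the 5 selection genes (percent, log axis) in each filtered cell of the 3 tumor libraries, with acinar cells coloured, other cells grey (cells at 0 are not drawn), the 5% threshold dashed and the median of acinar cells as a bar. Acinar cells of KPCA.A reach down to 5.19% beside other cells of up to 4.82%, while in KPCA.B a gap lies between 2.06% and 9.57%.

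The name was checked with 15 acinar genes outside the selection, among them the carboxypeptidase gene Cpa1, the granule gene Sycn and the transcription factor gene Ptf1a. All 15 had UMIs in acinar cells of each library, 11.1%, 18.8% and 19.1% of the pooled total, library by library, against 0.0666%, 0.0268% and 0.0135% in other cells. Of 11 islet genes only Ttr was seen, with 6, 25 and 0 UMIs, and Ins1, Ins2, Gcg and Sst were at 0. All 4 adipocyte genes were at 0, and 5 T and NK cell genes gave 1 UMI, in KPCA.B. Other cells held 3.74e-05%, 0.000196% and 6.52e-05% of adipocyte and 0.00180%, 0.0165% and 0.00366% of T and NK cell genes. The adipocyte zeros thus do not set acinar cells apart from them. All 10 duct genes had UMIs in KPCA.A, 120 in 22 of 34 cells. The pooled duct share was 0.0982%, 0.00667% and 0.00369% against 0.178%, 0.0573% and 0.0915% in other cells. The acinar name stands for the selection as a whole and not for every cell in it. Macrophage genes reached 1.81% of the UMIs of a KPCA.B cell with a selection-gene share of 11.5%, and gut epithelial genes 1.54% of those of a KPCA.A cell at 5.64%.

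Few genes per cell marked the acinar cells. With each cell thinned to 1000 UMIs, the median number of genes was 362, 209 and 241, against 641, 622 and 644 in other cells, with 4, 0 and 0 acinar cells too shallow to thin. Unthinned medians were 698, 717 and 580 against 2690, 2572 and 3720. Acinar cells at 20% or more had thinned medians of 239, 201 and 240.5 genes and those under 20% of 474, 396 and 514, the last from 1 cell. In KPCA.A the cells under 20% also had a median of 9.58% mitochondrial UMIs, against 3.85% in those at 20% or more.

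**Figure D2:**
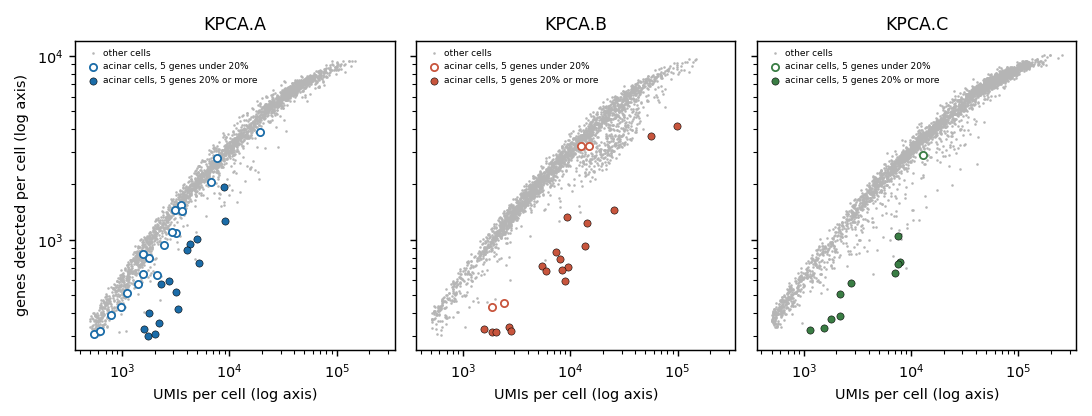
Genes against UMIs per cell (both log axes) in the 3 tumor libraries, with acinar cells at 20% or more of selection-gene UMIs filled, those under 20% open and other cells grey. At a given depth the filled points lie below most grey ones, and many open points of KPCA.A lie among the grey ones.

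RNA of other cell types was present in part of the acinar cells. A UMI of Ptprc (leukocytes), Col1a1 (fibroblasts) or Cdkn2a (in the tumor epithelial list) was found in 12 of 34, 7 of 22 and 2 of 11, that is in 13 of the 24 cells under 20% and 8 of the 43 above. The median share of 8 macrophage genes was 0.0847%, 0.00762% and 0.0128% of a cell's UMIs, and their pooled share 0.124%, 0.0960% and 0.0923% against 0.237%, 0.427% and 0.235% in other cells. B and plasma cell genes had pooled shares of 0.118%, 0.282% and 0.0221% against 0.435%, 8.98% and 0.552%, highest in KPCA.B in both. Tumor epithelial genes had 0.198%, 0.0283% and 0.0203% against 0.446%, 0.111% and 0.285%, and fibroblast genes a median of 0 in each library. No doublet caller was run, and whether such UMIs came from a second cell or from free RNA was not tested.

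Genes of secreted digestive enzymes took a large part of the RNA. The 31 genes of the protease, lipase and amylase lists held 35.1% (34.8 to 35.3%) in KPCA.A, 54.9% (54.7 to 55.03%) in KPCA.B and, for the smallest group, 48.6% (48.2 to 49.1%) in KPCA.C. Per cell the lowest, median and highest share was 7.04%, 29.9% and 61.4% in KPCA.A, 18.96%, 54.2% and 65.8% in KPCA.B and 21.5%, 56.6% and 62.3% in KPCA.C. The 31 genes include the 5 selection genes, which alone took 19.4%, 29.7% and 25.3% of pooled UMIs. Among cells at 20% or more the medians lay closer together, at 50.7%, 56.1% and 56.6%. That limit is set on the selection genes, so it fixes part of the enzyme share in advance. The transcript with most UMIs, mitochondrial ones aside, was Clps in 11, Ctrb1 in 8 and Gm42418, a transcript overlapping ribosomal RNA sequence, in 11 of the 34 cells of KPCA.A. It was Ctrb1 in 13 and Clps in 6 of 22 in KPCA.B, and Cela2a in 5 and Ctrb1 in 5 of 11 in KPCA.C.

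Proteases were the largest class, at 24.2%, 37.8% and 37.9% of UMIs in KPCA.A, KPCA.B and KPCA.C. Levels of single genes are given as counts per 1e6 UMIs (CPM) of the pooled acinar cells, in that order of libraries. They count 3′ ends and are not divided by gene length, so a comparison between genes is one of UMI shares. Ctrb1, a chymotrypsinogen (ENSMUSG00000031957, chr8:111686519-111691010, GRCm38), was at 47079.9, 72693 and 74552 CPM. Cela1, an elastase (chr15:100674421-100687921), was at 35193, 62140.1 and 52015 CPM, and Prss2 (chr6:41521787-41525079), at 36731, 44167 and 54377 CPM. These 3 belong to the selection genes, so their levels in the chosen cells are bound by the rule and are given as a description. Carboxypeptidases, which trim peptides from the carboxyl end, were at 19699, 27652 and 18329 CPM for Cpa1 and 22407, 21189 and 16040 CPM for Cpb1.

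Trypsinogen genes, with 2210010C04Rik counted among them, together took 11.1%, 14.5% and 13.9% of UMIs. Try4 was at 22726, 34195 and 28998 CPM and Try5 at 11911, 16486 and 13198 CPM, but the last 300 bases of their transcripts are 96.3% identical, so the division of UMIs between them is uncertain. Prss1 had 7 UMIs in KPCA.B and 0 in KPCA.A and KPCA.C. The gene 2210010C04Rik (chr6:41030268-41035509), which lies on the chromosome that carries these genes, was at 39177, 48632 and 41789 CPM.

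Cela2a (ENSMUSG00000058579, chr4:141814962-141826160), another elastase gene, set the libraries apart. Its lowest, median and highest level per cell was 635, 10923 and 42553 CPM in KPCA.A, 4165, 33813 and 78249 CPM in KPCA.B and 29709.9, 79832 and 111497 CPM in KPCA.C. Single cells overlapped between libraries, but the KPCA.C median lay above every cell of KPCA.B. Pooled, Cela2a was at 13973, 38558 and 67815 CPM, so that KPCA.C exceeded KPCA.A 4.85-fold (4.58 to 5.14) and KPCA.B 1.76-fold (1.69 to 1.83), and KPCA.B exceeded KPCA.A 2.76-fold (2.62 to 2.90). Among cells at 20% or more the medians were 15622, 34406 and 82356 CPM, in the same order. The log2 ratio of KPCA.C over KPCA.A lay between 2.26 and 3.07 in 11 other settings of the processing.

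Lipases and their cofactor took 9.04%, 14.8% and 9.30% of UMIs. Clps (chr17:28558149-28560766), the colipase that anchors pancreatic lipase to fat droplets, is a selection gene, and its levels here are a description bound by the rule. Its lowest, median and highest level per cell was 1272, 41824 and 113969.8 CPM in KPCA.A, 1914, 59893 and 126347 CPM in KPCA.B and 17623, 37986 and 86835 CPM in KPCA.C. The ranges overlapped, and the pooled levels were 49460.5, 71537 and 36196 CPM, 1.98-fold (1.89 to 2.07) lower in KPCA.C relative to KPCA.B. Pnlip (chr19:58652498-58681788), the main pancreatic lipase and also a selection gene, was at 25851, 46322 and 35439 CPM, and Cel, which splits cholesterol esters, at 5440.2, 8872 and 6313 CPM. Pnliprp1, a lipase relative, was at 5686, 14299.7 and 10373 CPM, with KPCA.B 2.52-fold (2.32 to 2.73) above KPCA.A.

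Amylase RNA was scarce beside the other enzymes. Amy2a5, a pancreatic amylase gene, had 29, 277 and 39 UMIs, or 237, 880.2 and 719.9 CPM, far below the ribonuclease gene Rnase1 at 18014, 21348 and 13825 CPM. The Amy2a genes are near-identical copies, so reads shared between copies may not have been counted and amylase levels are uncertain. Amy2a5 was 3.71-fold (2.53 to 5.64) higher in KPCA.B and 3.03-fold (1.83 to 5.09) higher in KPCA.C, both relative to KPCA.A, while Rnase1, the other gene of this class with 50 UMIs or more, passed 2-fold in no comparison.

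Genes of the zymogen granule and protective proteins took 5.14%, 7.41% and 6.55% of UMIs. Cells at 20% or more of selection-gene UMIs lay closer together, at 7.56%, 7.95% and 7.62%. Zg16, a granule lectin, was at 13604, 23709 and 22869.5 CPM and Sycn (syncollin) at 10463, 15186 and 19658 CPM. Spink1, the secreted trypsin inhibitor, was at 2291, 4643 and 3304 CPM, and Gp2, the main glycoprotein of granule membranes, at 1824, 2669 and 1569 CPM. Spink1 was 2.03-fold (1.78 to 2.31) higher in KPCA.B relative to KPCA.A, a difference that stayed past 2-fold in 6 of 12 other settings.

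Between libraries a gene was counted as different when its CPM, with 5 CPM added, differed over 2-fold, among genes with at least 50 UMIs in both libraries together. For KPCA.B over KPCA.A this held for 30.8% of 386 genes (9.59% higher, 21.2% lower), with a median log2 ratio of -0.08. There 4 of 15 protease genes were higher and 0 lower, Cela2a among them, with a list median of 0.65. Of 12 genes on the list of zymogen granule and protective proteins, called granule genes for short, 5 were higher and 0 lower. These were Tmem97, Pdia2, Erp27, Spink1 and Tmed6, with a list median of 0.86, while Zg16, Sycn and Gp2 stayed under 2-fold. Of 6 lipase genes 1 was higher, Pnliprp1. For KPCA.C over KPCA.A 28.4% of 222 genes passed (11.3% higher, 17.1% lower, median -0.01), and Cela2a was the 1 of 13 protease genes, Pdia2 the 1 of 9 granule genes that were higher, with 0 lower and 0 of 6 lipase genes past 2-fold. For KPCA.C over KPCA.B 21.9% of 311 genes passed (10.3% higher, 11.6% lower, median -0.13). There 1 of 15 protease genes, Prss3, and 1 of 12 granule genes, Tmem97, were lower, with 0 higher and 0 of 6 lipase genes past 2-fold. The protease counts include the selection genes Ctrb1, Prss2 and Cela1, and the lipase counts Pnlip and Clps. The rule bounds the levels of these genes in every library, so their small ratios are in part set by the selection. The comparisons share libraries and are not independent.

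Enzyme RNA fills much of the total, so levels were also scaled to the UMIs outside the 31 enzyme genes. UMIs of 2210010C04Rik, which is not among the 31, stayed in that total. The median log2 ratio of all genes was then 0.40 for KPCA.B over KPCA.A, 0.29 for KPCA.C over KPCA.A and -0.25 for KPCA.C over KPCA.B. Genes higher and lower went from 37 and 82 to 73 and 58 in the first comparison, and from 25 and 38 to 42 and 32 in the second. On that scale 10 of 11 granule genes were higher in KPCA.B over KPCA.A, where 20.1% of 363 genes were. The granule list as a whole then took 7.91%, 16.4% and 12.7% in acinar cells, library by library. Restricted to cells with a selection-gene share of 20% or more, it took 15.2%, 19.1% and 17.7%, less than 2-fold apart. Acinar cells of KPCA.A under 20% were at 3.84%, and those of KPCA.B at 3.34%. The higher granule counts thus hold for the pooled selection and not for its cells at 20% or more taken as a list.

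**Figure D3:**
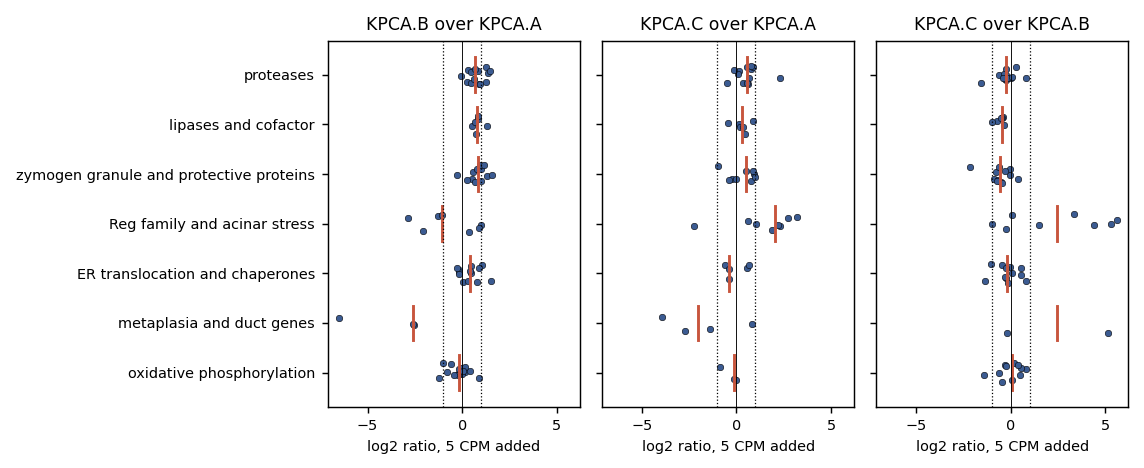
Log2 ratio of pooled CPM (5 CPM added) for each tested gene of 7 lists between pairs of libraries, with list medians as red bars and 2-fold as dotted lines. Protease, lipase and granule genes, among them the 5 selection genes, lie mostly within 2-fold, while Reg genes reach 5.62 in KPCA.C over KPCA.B.

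The Reg family showed the widest spread among the lists of secreted proteins. Reg genes form a cluster on chromosome 6, from Reg3b (chr6:78370657-78373466) to Reg3g (chr6:78466269-78468872). Of 8 Reg and stress genes tested in KPCA.C over KPCA.B, 5 were higher (Reg2, Reg3a, Reg3b, Reg3d and Reg3g) and Clu lower, with a list median of 2.43. In KPCA.C over KPCA.A, 6 of 8 were higher, those 5 and Reg1, and Clu lower, with a median of 2.02. Scaled outside enzymes, the counts were again 5 of 8 and 6 of 8, where 10.1% and 20.9% of all tested genes were higher. In KPCA.B over KPCA.A 1 of 7, Reg1, was higher and 4 lower, which became 2 higher and 2 lower outside enzymes. Over all tested genes 9.59% were higher and 21.2% lower there, and 20.1% and 16% outside enzymes.

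Reg3b, known as pancreatitis-associated protein, had UMIs in 20, 6 and 11 acinar cells of the libraries in that order. Its lowest, median and highest level per cell was 0, 386 and 37406 CPM in KPCA.A, 0, 0 and 9996 CPM in KPCA.B and 156, 1834 and 41833 CPM in KPCA.C. The highest cells of KPCA.A came near the highest of KPCA.C, so the ranges overlapped. Pooled, Reg3b was at 1669, 222 and 11149 CPM, with KPCA.C 50.1-fold (39.1 to 65.1) above KPCA.B and 6.68-fold (5.69 to 7.87) above KPCA.A, and KPCA.B 7.50-fold (5.69 to 9.99) below KPCA.A. In 12 other settings the log2 ratio of KPCA.C over KPCA.B lay between 3.17 and 6.86 around 5.62.

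Reg2 had UMIs in 16, 13 and 11 cells, with a lowest, median and highest level of 0, 0 and 42394 CPM in KPCA.A, 0, 124 and 6247 CPM in KPCA.B and 652, 5135 and 34626 CPM in KPCA.C. Every KPCA.C cell held Reg2, and the highest cell of all was in KPCA.A. Pooled, it was at 2004, 467 and 9838 CPM, with KPCA.C 21.1-fold (17.5 to 25.5) above KPCA.B and 4.91-fold (4.21 to 5.73) above KPCA.A. Reg3a was at 205, 19.1 and 941 CPM (25, 6 and 51 UMIs) and Reg3g, a lectin that binds bacterial cell walls, at 89.99, 79.4 and 868 CPM (11, 25 and 47 UMIs). KPCA.C exceeded KPCA.B 49.4-fold (21.2 to 141) in Reg3a and 10.9-fold (6.59 to 18.5) in Reg3g. Of the 25 Reg3g UMIs of KPCA.B, 16 lay in 1 cell with a selection-gene share of 9.57%. Among cells at 20% or more Reg3g was at 175, 21.2 and 1137 CPM, and over 12 other settings its log2 ratio of KPCA.C over KPCA.B lay between 1.24 and 5.45, so the size of this difference is uncertain. For Reg3a the range was 3.101 to 5.77. Reg3d was at 179.97, 232 and 664 CPM.

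Reg1, which acinar cells also express without injury, had another pattern. It was at 13932, 27938 and 28887 CPM, 2.01-fold (1.90 to 2.11) higher in KPCA.B and 2.07-fold (1.93 to 2.22) higher in KPCA.C, both relative to KPCA.A, and KPCA.C and KPCA.B differed 1.03-fold (0.979 to 1.09). These differences lay at the 2-fold limit and stayed past it in 10 of 12 other settings for KPCA.B and 8 of 12 for KPCA.C. Among cells at 20% or more Reg1 was at 20005, 28873 and 35088 CPM, under 2-fold above KPCA.A in both. Tff2, a trefoil peptide gene, was at 3338, 6069 and 5094 CPM and passed 2-fold in no comparison. Clu, a secreted chaperone gene, was at 1963, 819.8 and 406 CPM against 3117, 637 and 624 CPM in other cells, with KPCA.C 4.83-fold (3.12 to 7.86) below KPCA.A. Its ratio of KPCA.C over KPCA.B turned direction when cells with Ptprc, Col1a1 or Cdkn2a UMIs were left out, from a log2 ratio of -1.005 to 0.22.

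Within a library few cells carried a large part of the RNA of Reg2, Reg3a, Reg3b and Reg3g. Reg1, the most abundant Reg gene, is left out of these sums. Reg2, Reg3a, Reg3b and Reg3g together took 0.397%, 0.0788% and 2.28% of pooled UMIs, with medians per cell of 0.0561%, 0.0153% and 0.796%. The highest cell reached 8.60%, 1.79% and 6.36%, the lowest of KPCA.C was at 0.125%, and 9, 8 and 0 cells held none. At 1% or more lay 4, 1 and 5 cells, and the 2 highest held 73.2%, 47.98% and 77.00% of these UMIs of their library. Among cells at 20% or more of selection-gene UMIs the medians were 0.0493%, 0.0153% and 0.911%, again highest in KPCA.C.

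**Figure D4:**
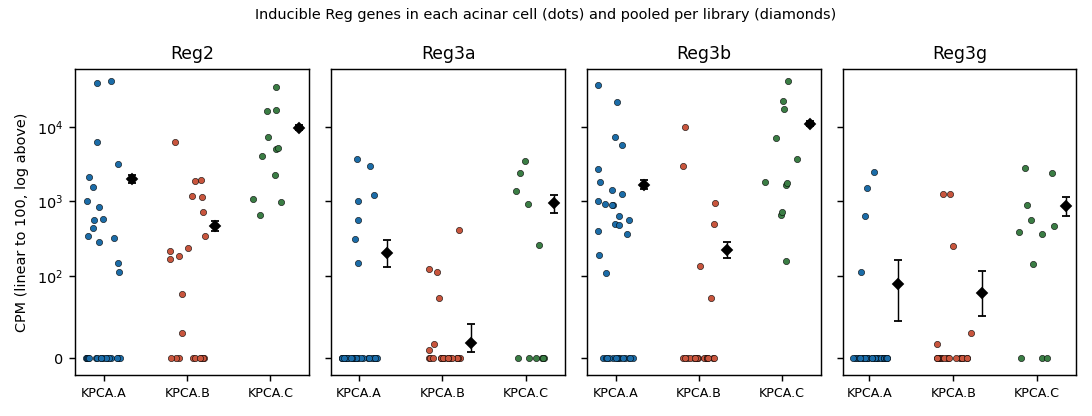
CPM of Reg2, Reg3a, Reg3b and Reg3g (axis linear to 100 and log above) in each acinar cell (dots) and pooled per library (diamonds with 95% Poisson intervals). Every KPCA.C cell lies above 0 for Reg2 and Reg3b, while single cells of KPCA.A reach 42394 and 37406 CPM.

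Transcription factors of the acinar program were seen at low counts. Ptf1a and Rbpjl had 5, 7 and 2 and 4, 13 and 2 UMIs in KPCA.A, KPCA.B and KPCA.C. Bhlha15 (MIST1), a factor of secretory cell maturation, had 8, 12 and 2 UMIs and Nr5a2, a nuclear receptor of acinar identity, 1, 10 and 1. Xbp1, which expands the endoplasmic reticulum, had 36, 52 and 18 UMIs (295, 165 and 332 CPM). Of 12 factors only Xbp1 had the UMIs for a comparison, and it passed 2-fold in none.

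Genes of endoplasmic reticulum translocation and folding took 0.440%, 0.549% and 0.474% of UMIs, against 0.752%, 1.15% and 0.897% in other cells. Of the UMIs outside the enzyme genes they took 0.678%, 1.22% and 0.924% against 0.754%, 1.15% and 0.898%, so the direction turned in KPCA.B and KPCA.C with this scaling. In KPCA.A the cells at 20% or more of selection-gene UMIs were then at 0.971%, also above its other cells. Its cells under 20% were at 0.513%, below them. The chaperone gene Hspa5 was at 589, 1011 and 388 CPM and the disulfide isomerase gene P4hb at 539.9, 553 and 406 CPM. In KPCA.B over KPCA.A 2 of 13 genes were higher (Sec61b and Dnajc3), where 9.59% of all tested genes were. In KPCA.C over KPCA.B 2 of 12 were lower (Hspa5 and Dnajc3), where 11.6% of all were, and in KPCA.C over KPCA.A 0 of 5 passed. With levels scaled outside enzymes these became 4 higher, 2 lower and 1 higher, where 20.1%, 15.6% and 20.9% of all tested genes were. Hspa5 was 2.61-fold (1.68 to 4.27) lower in KPCA.C relative to KPCA.B, from 21 and 318 UMIs.

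Cckar, the cholecystokinin receptor gene, had UMIs in 17, 16 and 3 acinar cells and was at 254, 283 and 92.3 CPM, against 2.68, 0.529 and 0.199 CPM in other cells. It was 3.06-fold (1.27 to 9.67) lower in KPCA.C relative to KPCA.B, from 5 and 89 UMIs, and past 2-fold in 10 of 12 other settings. Of the 89 Cckar UMIs, 38 lay in the deepest KPCA.B cell. The muscarinic receptor gene Chrm3 gave 1 UMI, in KPCA.B. The water channel gene Aqp12, known from acinar cells, was at 73.6, 257 and 111 CPM, but its log2 ratios turned direction with cells thinned to 1000 UMIs, to -1.77 for KPCA.B over KPCA.A and 0.93 for KPCA.C over KPCA.B. The deepest KPCA.B cell held 38 of the 81 Aqp12 UMIs there. Of the list of receptors and calcium genes, 1 of 2 tested (Aqp12) was higher in KPCA.B over KPCA.A, 2 of 2 (Cckar and Aqp12) were lower in KPCA.C over KPCA.B, and none had the UMIs for KPCA.C over KPCA.A. Of all tested genes, 9.59% were higher in KPCA.B over KPCA.A and 11.6% lower in KPCA.C over KPCA.B. Gatm, which starts creatine synthesis, was at 458, 242 and 332 CPM against 189, 135 and 147 CPM in other cells, and Gnmt, a glycine methyltransferase gene, had 0, 21 and 7 UMIs. Of the amino acid supply genes 0 of 4, 0 of 1 and 1 of 2 (Gamt, lower in KPCA.C over KPCA.B) passed 2-fold, where 30.8%, 28.4% and 21.9% of all tested genes did.

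Duct and metaplasia genes took 0.587%, 0.0499% and 0.168% of UMIs, below the 1.48%, 0.456% and 1.86% of other cells. KPCA.A cells under 20% of selection-gene UMIs held 575 of its 717 UMIs. Shares among cells at 20% or more were 0.248%, 0.0223% and 0.111%. In KPCA.B over KPCA.A 3 of 3 tested genes were lower (Spp1, Krt18 and Krt8), in KPCA.C over KPCA.A the same 3 of 4, and in KPCA.C over KPCA.B Spp1 was the 1 of 2 higher. Over all tested genes the shares were 21.2% lower, 17.1% lower and 10.3% higher in these comparisons. Spp1 (osteopontin) was at 2168, 19.1 and 831 CPM against 5985, 896 and 11189 CPM in other cells, and its log2 ratio of KPCA.C over KPCA.A turned to 0.45 with a selection threshold of 2%. Krt8, a keratin of simple epithelia, was at 867, 146 and 129 CPM against 1723, 330.1 and 954 CPM, and its partner Krt18 at 629.9, 98.5 and 36.9 CPM against 1352, 336 and 629 CPM. Among cells at 20% or more Krt8 had levels of 297, 38.9 and 169 CPM. Levels of Krt18 in those cells were 87.3, 70.7 and 48.4 CPM, under 2-fold apart between any libraries, and levels of Spp1 were 1152, 7.07 and 653 CPM. Sox9, a duct factor gene, had 28, 6 and 0 UMIs. Tff1, a gene of gastric mucosa, had 54, 0 and 0 UMIs, the 54 of KPCA.A in 8 cells (442 CPM against 372 CPM in its other cells). Of these, 52 UMIs lay in KPCA.A cells under 20% (801 CPM) and 2 in those at 20% or more (34.9 CPM). The part of free RNA in these genes was not tested.

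Immediate early and dissociation genes took 0.264%, 0.0308% and 0.0591% of UMIs, against 0.379%, 0.216% and 0.374% in other cells. Outside enzymes the shares were 0.407%, 0.0683% and 0.115% against 0.380%, 0.217% and 0.374%, with KPCA.A then above its other cells. KPCA.A cells under 20% held 248 of its 323 UMIs, or 0.382% of their total against 0.131% in cells at 20% or more. Outside enzymes these shares were 0.488% and 0.263%, so that only the cells under 20% lay above the other cells. In KPCA.B over KPCA.A 2 of 2 tested were lower (Egr1 and Jund), and in KPCA.C over KPCA.A 2 of 2 (Egr1 and Junb), which became 1 and 2 outside enzymes. Over all tested genes 21.2% and 17.1% were lower there, and 16% and 15.9% outside enzymes. Egr1 had 53, 3 and 0 UMIs. Oxidative phosphorylation genes took 0.390%, 0.358% and 0.377% of UMIs, and 2 of 15 (Atp5b and Atp5j) were lower in KPCA.B over KPCA.A, 0 of 3 passed in KPCA.C over KPCA.A, and 1 of 11 (Atp5g1) was lower in KPCA.C over KPCA.B. Over all tested genes 21.2% were lower in KPCA.B over KPCA.A and 11.6% in KPCA.C over KPCA.B. Outside enzymes the count for KPCA.B over KPCA.A turned to 1 of 15 higher and 0 lower, where 20.1% and 16% of all were. Ribosomal protein genes took 8.11%, 9.27% and 8.17%, against 14.6%, 16.1% and 18.1% in other cells. Outside enzymes they took 12.5%, 20.5% and 15.9% against 14.6%, 16.1% and 18.1%, with KPCA.B then above its other cells.

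Transcripts that vary with RNA quality differed between libraries. The nuclear RNA Malat1 was at 9858, 1258 and 8122 CPM against 17309, 14369.6 and 13841 CPM in other cells. In KPCA.C 419 of 440 Malat1 UMIs lay in its deepest cell. Without the deepest cell of each library Malat1 was at 4729, 1567 and 508 CPM, and among cells at 20% or more at 1466, 587 and 508 CPM, so that KPCA.C and not KPCA.B was lowest. Gm42418 was at 44822, 27776 and 7586 CPM against 21929, 31260.3 and 9877 CPM, and in KPCA.A its median share was 7.95% in cells under 20% and 2.66% in the others. Mitochondrial transcripts took 7.25%, 1.55% and 1.31% of pooled UMIs against 8.02%, 4.39% and 5.57% in other cells. Outside enzymes they took 11.2%, 3.44% and 2.56% against 8.03%, 4.39% and 5.58%, so that KPCA.A lay above its other cells and KPCA.B and KPCA.C below theirs. Lars2, a mitochondrial synthetase gene, was at 1121, 3276 and 701 CPM, 4.67-fold (3.38 to 6.64) lower in KPCA.C relative to KPCA.B. Their part in the differences above was not tested.

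Among genes no lower in acinar than in other cells of KPCA.C, the 6 with the widest ratio over KPCA.A came almost wholly from 1 cell. This deepest acinar cell of KPCA.C, with 12824 UMIs, 2888 genes and a selection-gene share of 11.9%, held 216 of 219 UMIs of Arg1, 134 of 136 of the chemokine gene Ccl24, 156 of 157 of Srgn, 48 of 48 of Maf, 52 of 52 of Tgfbi and 45 of 47 of Ccl9. It also held 16 of 16 UMIs of Tyrobp and 11 of 11 of Fcgr3, genes of myeloid cells. Without the deepest cell of each library the log2 ratios of KPCA.C over KPCA.B were -2.87 for Arg1, -0.73 for Ccl24, -2.05 for Srgn, -2.72 for Maf, -1.92 for Tgfbi and -1.53 for Ccl9, all turned from higher to lower. The turned ratios rest on few KPCA.B cells in their turn. Outside its deepest cell, KPCA.B had UMIs of Srgn (26 in all) and Ccl24 (20 in all) in 1 cell each. Maf was then in 2 KPCA.B cells, Tgfbi in 3 and Arg1 and Ccl9 in 4 each. The same cell held only 2 of 604 UMIs of Reg3b and 14 of 533 of Reg2, so the Reg levels of KPCA.C came from other cells. Most came from 2 of these, which held 77.00% of the Reg2, Reg3a, Reg3b and Reg3g UMIs of the library.

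Acinar RNA also lay outside the acinar cells. A UMI of the 5 selection genes was found in 2613 of 2614 other cells of KPCA.A (99.96%), 2475 of 2564 of KPCA.B (96.5%) and 2914 of 3087 of KPCA.C (94.4%), at median depths of 7996, 7954 and 14744 UMIs. In ascites it was in 91 of 2921 (3.12%, 2.52 to 3.81%) at a median of 2077 UMIs. Pooled, these genes made up 0.131%, 0.0481% and 0.0220% of other cells' UMIs in the tumors and 0.00132% in ascites. Of each library's UMIs of these genes, acinar cells held 15.6%, 78.4% and 33.1% and barcodes that failed the filter 45.2%, 6.32% and 18.7%.

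The makeup of this scattered RNA was set beside that of the acinar cells, as a share of the UMIs of the 31 enzyme genes and 2210010C04Rik. Cela2a took 3.58% (3.42 to 3.75%), 6.46% (6.35 to 6.57%) and 12.8% (12.5 to 13.2%) in acinar cells, in the order of libraries used above. In other cells it took 5.02%, 5.46% and 12.05%, and in barcodes that failed the filter 4.66%, 6.41% and 12.4%, with KPCA.C highest in all 3 kinds of barcode. Clps took 12.7%, 11.98% and 6.85% in acinar cells, 12.1%, 13.4% and 9.59% in other cells and 13.5%, 14.3% and 10.8% in failed barcodes, with KPCA.C lowest in each.

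**Figure D5:**
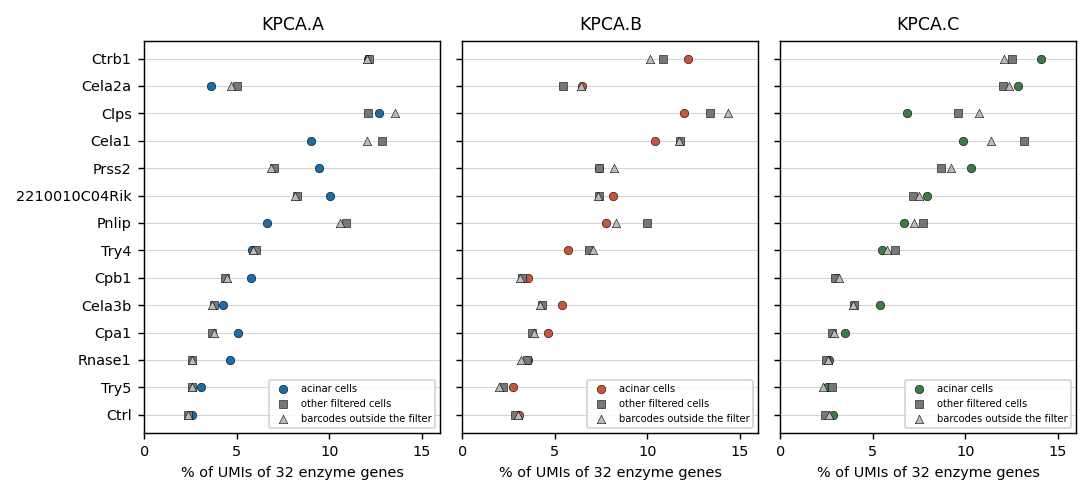
Share of the UMIs of 32 enzyme genes (percent) taken by each of 14 genes in acinar cells, other filtered cells and barcodes outside the filter, by library. Cela2a lies higher in KPCA.C, at 12.8% in acinar cells, than in the other libraries for all 3 kinds of barcode, and Clps lies lower.

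Reg3b, set against the same enzyme UMIs, was at 0.428% (0.371 to 0.491%), 0.0373% (0.0290 to 0.0471%) and 2.11% (1.95 to 2.29%) in acinar cells. In other cells it was at 0.703% (0.654 to 0.754%), 0.0733% (0.0475 to 0.108%) and 1.07% (0.968 to 1.18%), the same order of libraries. In failed barcodes it was at 1.12% (1.06 to 1.18%), 0.0630% (0.0288 to 0.120%) and 0.893% (0.749 to 1.06%), where KPCA.A was highest. KPCA.B was thus lowest in every kind of barcode, while the order of KPCA.A and KPCA.C differed between kinds. Reg2 was at 0.514%, 0.0782% and 1.86% in acinar cells, 0.524%, 0.232% and 1.06% in other cells and 0.602%, 0.0910% and 1.15% in failed barcodes, highest in KPCA.C and lowest in KPCA.B in each.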

How the data were processed

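RNA of single cells was counted in 3 tumor libraries and 1 ascites library. Deposited matrices give raw UMI counts for each gene and barcode. Headers written by Cell Ranger name version 4.0.0 in the tumor files and 3.0.2 in the ascites file, per the file headers, while the submitters' processing notes name 3.1.0 and mm10. The other deposited values are identifiers, gene symbols and barcode sequences.

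UMIs of acinar cells were summed per library and scaled to CPM, with exact conditional intervals for ratios, exact Poisson intervals for levels and exact Clopper-Pearson intervals for shares. Log2 ratios had 5 CPM added, and counts of genes used those with 50 or more UMIs over a pair. A count of 0 allows 3. Thinning drew 1000 UMIs. Gene positions follow the GENCODE vM21 annotation of GRCm38. Of 189 listed genes 186 were in the annotation. With 1 library per group nothing was tested. A listed gene is not reported here by name.

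The cells, lists and markers were chosen with earlier results of these data known. Genes could be named if they were on a list, among the 15 most abundant outside the selection genes, or among the 6 with the largest ratio per pair and direction (at least 50 CPM in the higher library, and no lower there than in its other cells), leaving out ribosomal, mitochondrial and immunoglobulin genes. Malat1, Tff1, Tyrobp, Fcgr3, Ptprc, Col1a1 and Cdkn2a were named as markers or after their values were seen.

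On data simulated for KPCA.C over KPCA.B with 4-fold changes outside the 30 most abundant genes, 98.9% of 188 changed genes were recovered and 1.87% of 107 unchanged ones passed 2-fold. With changes among all genes, 89.5% of 191 were recovered and 24.1% of 108 unchanged ones passed, as abundant genes moved the total. Counts were drawn for the pooled cells, without differences between cells. These rates thus do not cover genes whose UMIs lie mostly in few cells.

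Alternatives were a looser filter (200 genes, 500 UMIs, 25% mitochondrial), a stricter one (500 genes, 1000 UMIs, 10%), thresholds of 2% and 20%, each selection gene left out, means over cells, thinned cells, 1 and 20 CPM added, minimums of 10 and 200 UMIs, median-of-ratios scaling, scaling outside enzymes, and removal of cells with Ptprc, Col1a1 or Cdkn2a UMIs. Removal of the deepest cell of each library was added after seeing the data. Tools were scipy 1.17.1, numpy 2.4.6, pandas 2.3.3, biopython 1.88, matplotlib 3.10.9 and python 3.11.15.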

Additional observations from a re-analysis of the deposited data

Results flagged for a closer look

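Barcodes that failed the cell filter also reached 5% of UMIs from the 5 selection genes, a signal in data that the counts of acinar cells leave out. There were 43, 12 and 9 in KPCA.A, KPCA.B and KPCA.C, against 0 in ascites. Of these 28, 10 and 8 had under 300 genes, 29, 5 and 2 were over 15% mitochondrial UMIs (some missed both limits) and none had under 500 UMIs. Their median selection-gene share was 7.29%, 24.5% and 28.6%, and 11, 8 and 8 lay at 20% or more.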

How the results depend on the processing

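No paired analysis was possible because each group has 1 library. The cause of the changes below was not tested, apart from the number of genes that each setting lets in. The number of acinar cells was 16 in KPCA.A and 7 in KPCA.C with the stricter filter, 19 in KPCA.C with the looser one, 157 and 23 in them at 2%, and 15 in KPCA.A at 20%. The median share of selection genes was 2.84% and 4.27% in them at 2%, and 27.8% in KPCA.A at 20%. The pooled enzyme share in KPCA.A was 34.3% (looser), 36.8% (stricter), 16.1% (2%), 50.2% (20%), 32.7% (mean over cells) and 36.3% (without the deepest cell). In KPCA.B it was 55.1% (stricter), 58.4% (20%), 51.6% (mean), 51.1% (thinned) and 51.98% (without the deepest). In KPCA.C it was 49.7% (looser), 47.6% (stricter), 40.7% (2%), 57.1% (20%), 52.4% (mean), 53.5% (thinned) and 57.1% (without the deepest). With other cells under 1% only, their selection-gene share was 0.104%, 0.0462% and 0.0212%. Genes past 2-fold in KPCA.B over KPCA.A (119) numbered 76 (stricter), 660 (2%), 50 (20%), 27 (thinned), 1088 (10 UMIs), 36 (200 UMIs) and 31 (without Ptprc, Col1a1 or Cdkn2a cells). In KPCA.C over KPCA.A (63) they numbered 340 (2%), 26 (20%), 23 (thinned), 617 (10 UMIs), 17 (200 UMIs) and 35 (without those cells). In KPCA.C over KPCA.B (68) they numbered 37 (20%), 11 (thinned), 564 (10 UMIs), 16 (200 UMIs) and 20 (without those cells). Log2 ratios of KPCA.C over KPCA.A turned, at 20%, without those cells and without the deepest cells, to -3.00, -3.81 and -3.13 for Maf, -1.21, -1.51 and -1.62 for Arg1, -0.79, -1.27 and -1.50 for Ccl24, -1.36, -2.93 and -3.03 for Srgn, -0.10, -0.30 and -0.45 for Ccl9 and -2.17, -4.36 and -4.61 for Tgfbi. Over KPCA.B they turned to -0.77, -1.70 and -2.72 for Maf and -1.94, -1.70 and -1.92 for Tgfbi, and, without the deepest cells alone, to -2.87 for Arg1, -0.73 for Ccl24, -2.05 for Srgn and -1.53 for Ccl9. Without the deepest cells the KPCA.B UMIs of Srgn and Ccl24 lay in 1 cell each. Clu turned to 0.22 (KPCA.C over KPCA.B, without those cells), Spp1 to 0.45 (KPCA.C over KPCA.A, 2%), and Aqp12, thinned, to -1.77 (KPCA.B over KPCA.A) and 0.93 (KPCA.C over KPCA.B). Higher Reg2, Reg3a, Reg3b, Reg3d and Reg3g of KPCA.C over both other libraries stayed past 2-fold in all 12 settings run on them. Lower Reg2 of KPCA.B relative to KPCA.A did so in 10 of 12, with log2 ratios between -3.30 and -0.44. Of the 245 Reg2 UMIs of KPCA.A, 130 and 68 lay in 2 cells with 421 and 327 genes, which only the stricter filter left out. Medians per cell of Reg2 had the other order, at 0 CPM in KPCA.A and 124 CPM in KPCA.B. No setting left out the 2 KPCA.C cells that held 77.00% of the Reg2, Reg3a, Reg3b and Reg3g UMIs of that library. Higher Reg1 relative to KPCA.A stayed past 2-fold in 10 of 12 for KPCA.B (lowest log2 ratio 0.53) and 8 of 12 for KPCA.C (lowest 0.73).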
